A study of Mus musculus with 6 samples.

Results

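Imprinted genes are expressed mainly from 1 of the parental copies, and the 10 genes described here were taken by symbol from a list: *H19*, *Dlk1*, *Meg3*, *Rian*, *Mirg*, *Peg3*, *Mest*, *Plagl1*, *Grb10* and *Ndn*. Each had 1 row among the 55401 rows of the count matrix. They were picked by symbol, not by a threshold on these data. Only 6 of the 10 passed the filter on low counts, which kept 17310 genes. The other 4, *Dlk1*, *Meg3*, *Rian* and *Mirg*, did not exceed 12 estimated counts in any library, so the description of the list as genes expressed in myoblasts did not hold for them here.

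The study asked what PHF2, a histone H3K9me2 demethylase, does in muscle differentiation, and sequenced polyadenylated RNA of C2C12 cells 2 d post differentiation. C2C12 is a mouse myoblast line whose cells fuse into myotubes in low-serum medium, here with 2% horse serum. The *Phf2* KO group (3 libraries) was transfected with a pool of 4 plasmids, each with a different *Phf2* guide RNA, and sorted for the ZsGreen reporter, without cloning. The control group (3 libraries) is labelled wild type and is described as mock cells, which received the reporter plasmid without a specific guide RNA and were sorted in the same way. Both groups thus carry a transfected reporter plasmid and a sort. Each group is 1 sorted pool, and its libraries are wells of a single experiment. The p-values therefore measure only the spread between these wells, and *Phf2* loss cannot be told apart from a difference between the pools. The paper adds that the control plasmid carried the cutting enzyme Cas9 and a guide that matches no mouse sequence. DNA breaks, which it expects only in *Phf2* KO cells, cannot be told apart from *Phf2* loss either. No sequence variants were read, so the values are the sum of both parental copies.

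In imprinting, a DNA methylation mark set in the egg or in the sperm is kept on 1 of the parental chromosomes and holds genes of that chromosome silent or active. Imprinted genes lie in clusters, and a single methylated control region often governs neighbours of opposite parental expression, as for the maternally expressed *H19* and the paternally expressed *Igf2*. Many of them control growth before birth, and *H19* is abundant in embryonic and differentiating muscle.

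The libraries held between 52526109 and 67502788 estimated counts, which is the unit the authors' quantification gives. Levels are given as CPM, counts scaled to the TMM-adjusted library size, and as TPM where genes of different length are compared. *Phf2* was at 102.4, 95.5 and 104.6 CPM in control replicates 1, 2 and 3, and at 41.1, 37.6 and 38.6 CPM in *Phf2* KO replicates 1, 2 and 3 (log2 fold change -1.37, standard error 0.0553). Among all genes tested, 1122 passed an adjusted p of 0.05 (6.48%), of which 557 were higher (3.22%) and 565 lower (3.26%) in *Phf2* KO cells. The marker genes of myotubes were 12 of 12 lower, and 10 of them passed the threshold. Their summed level was between 7292 and 8555 CPM in control libraries and between 5774 and 6342 CPM in *Phf2* KO libraries. In the 8 markers of cycling or undifferentiated myoblasts no gene passed the threshold, and the summed level was between 306.0 and 344.7 CPM in control and between 376.2 and 383.4 CPM in *Phf2* KO libraries. By direction 7 were higher and 1 lower. Most of the rise in the sum was in *Id3*, at 96.8 ± 13.8 CPM in control and 136.8 ± 10.4 CPM in *Phf2* KO cells (SD, n = 3; edgeR adjusted p = 0.0661). The cycling markers *Mki67* (65.1 and 65.4 CPM) and *Top2a* (79.9 and 80.7 CPM) were nearly level. Markers of osteoblasts, macrophages and endothelial cells summed to at most 0.647, 2.30 and 0.790 CPM in any library. The 5 adipocyte markers summed to between 29.7 and 37.8 CPM in control and between 48.5 and 54.6 CPM in *Phf2* KO libraries, most of it from *Cebpa*, a transcription factor gene that was at 32.9 ± 3.88 and 51.8 ± 3.36 CPM (SD, n = 3) and rose by 0.65 on the log2 scale (edgeR adjusted p = 4.64e-04). *Fabp4*, the only other adipocyte marker tested, had a lower mean in *Phf2* KO cells. It was at 0.435 ± 0.358 and 0.255 ± 0.227 CPM (SD, n = 3; log2 fold change -0.75, edgeR adjusted p = 0.677). *Plin1* and *Lep* were at 0 in all libraries and *Adipoq* had at most 8 counts. The part of these markers in the results was not tested.

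The imprinted genes spanned a wide range of levels. Per transcript length, *H19* was highest with a mean of 4326 TPM over the 6 libraries, followed by *Peg3* with 179.8, *Mest* with 17.7 and *Ndn* with 3.72 TPM. The libraries of these 4 genes did not overlap in TPM with those of the next gene in the order. *Grb10* at a mean of 0.464 TPM and *Plagl1* at 0.196 TPM did overlap, so their order is not set by these data. The highest TPM of *Dlk1* was 0.0494, in control replicate 3. By counts, *H19* took between 0.495% and 0.521% of all counts in control libraries, where it ranked 6 or 7 among all genes. In *Phf2* KO libraries it took between 0.386% and 0.410% and ranked 10 or 11.

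**Figure D1:**
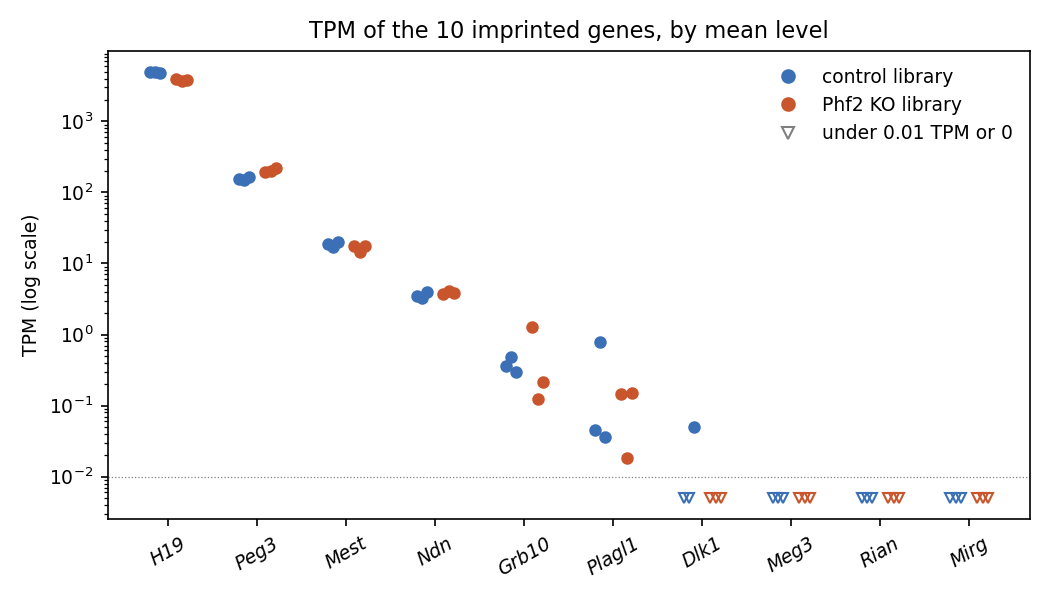
TPM of the 10 imprinted genes on a log scale, in order of their mean over the 6 libraries, with 1 point for each control library (blue) and each *Phf2* KO library (orange). Open triangles mark libraries under 0.01 TPM or at 0; *H19* lies near 4326 TPM, and *Dlk1* has a single point above the line.

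Of the 6 genes tested, 1 passed the threshold as lower in *Phf2* KO cells (*H19*) and 1 as higher (*Peg3*), in the quasi-likelihood test of edgeR, adjusted by Benjamini-Hochberg over all 17310 genes. Over all genes tested 3.26% passed as lower and 3.22% as higher, 6.48% in all. By direction alone 4 were lower and 2 were higher. Their control and *Phf2* KO libraries did not overlap in 5 of the 6, against 25.1% of all genes tested. With so few genes this share is a description only.

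**Figure D2:**
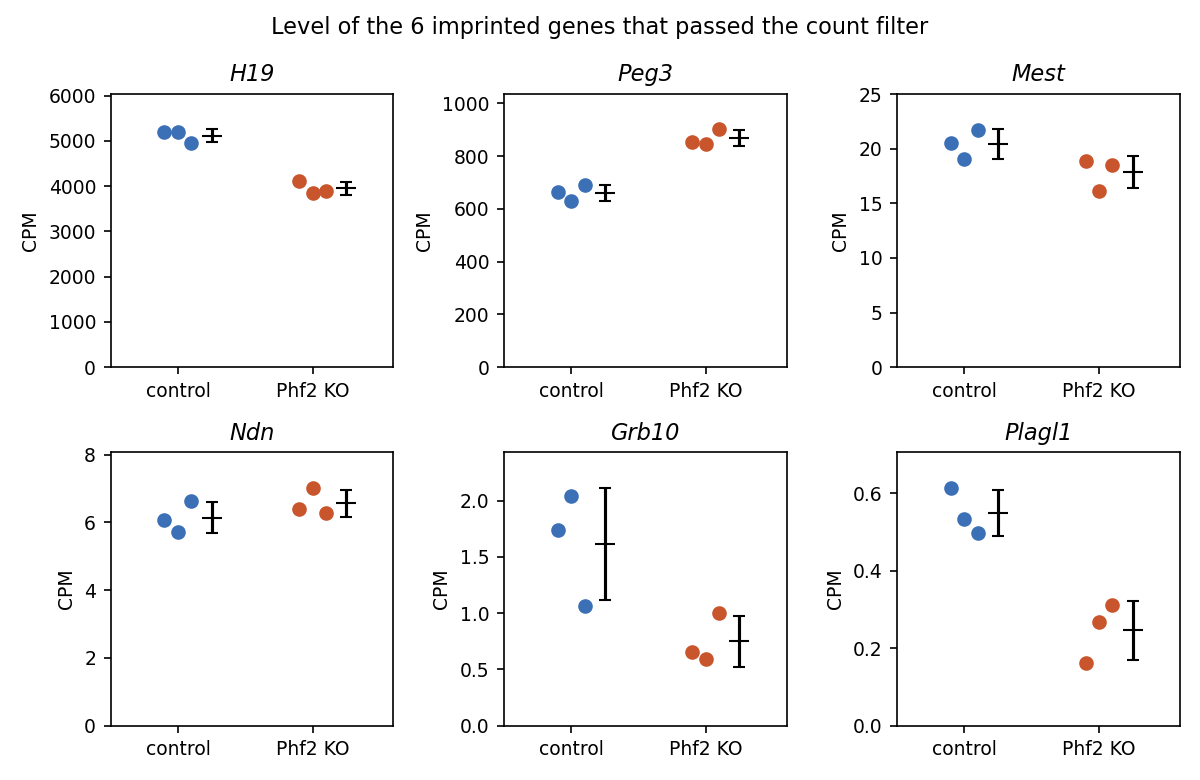
CPM in each library for the 6 imprinted genes that passed the count filter, with the mean ± SD (n = 3) beside the points; each panel has its own axis from 0. The *H19* libraries of *Phf2* KO cells lie below and the *Peg3* libraries above all control libraries, the *Ndn* libraries overlap, and *Grb10* control replicate 3 (1.06 CPM) lies next to *Phf2* KO replicate 3 (1.00 CPM).

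*H19* (ENSMUSG00000000031; GRCm38 chromosome 7, 142575529 to 142578143, minus strand) makes a long noncoding RNA from the maternal copy, which limits growth and also carries a microRNA precursor. It was at 5189, 5206 and 4951 CPM in control replicates 1, 2 and 3. In *Phf2* KO replicates 1, 2 and 3 it was at 4118, 3856 and 3885 CPM. Every *Phf2* KO library was below every control library, and the gap was several times the spread within a group. The means were 5115 ± 143 CPM in control and 3953 ± 144 CPM in *Phf2* KO cells (SD, n = 3), and the *Phf2* KO mean was 77.3% of control. *H19* fell by 0.37 on the log2 scale (standard error 0.0342, 95% interval -0.44 to -0.31, adjusted p = 3.46e-05). It passed the threshold in each of the 19 alternative settings, with log2 fold changes from -0.40 to -0.35. The myotube markers above were lower in the same libraries, and their part in the lower *H19* level was not tested. In bulk samples, fewer cells of a type and less RNA per cell cannot be told apart.

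The microRNA precursor within *H19* is of interest because its products come from the same transcript. The hairpin of miR-675 lies at chr7:142577064-142577147 on the minus strand, inside exon 1 in 3 of the 7 annotated *H19* transcripts. RefSeq (GRCm38.p6) gives these mature sequences, with the seed (bases 2 to 8) in capitals:
mmu-miR-675-5p: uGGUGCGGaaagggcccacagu
mmu-miR-675-3p: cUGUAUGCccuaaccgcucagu
The seeds differ between the arms. The row of the hairpin itself held at most 1 count in any library. Libraries of polyadenylated RNA do not measure mature microRNAs, so neither arm was measured here.

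*Igf2*, the paternally expressed insulin-like growth factor next to *H19* (chromosome 7, 142650766 to 142666816, minus strand), did not pass the threshold. It was at 259.9, 245.4 and 210.5 CPM in control replicates 1, 2 and 3 and at 257.8, 205.2 and 223.3 CPM in *Phf2* KO replicates 1, 2 and 3, and the groups overlapped. The log2 fold change was -0.06 (standard error 0.110, 95% interval -0.28 to 0.15, adjusted p = 0.845). The row is uncertain because *Gm49394* overlaps *Igf2* on the same strand, and summing both rows, an alternative added after seeing the data, gave no call either. The ratio of *H19* to *Igf2* in CPM was 20.0, 21.2 and 23.5 in control and 16.0, 18.8 and 17.4 in *Phf2* KO replicates 1, 2 and 3. All *Phf2* KO ratios were below all control ratios. The difference of the mean log2 ratios was -0.31 (4.43 ± 0.12 in control and 4.12 ± 0.12 in *Phf2* KO cells, SD, n = 3), with p = 0.1 by a two-sided exact permutation test, the smallest p that 3 libraries against 3 allow.

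*Peg3* (ENSMUSG00000002265; chromosome 7, 6703892 to 6730431, minus strand), which makes a large zinc finger protein from the paternal copy, went the other way. It was at 662.5, 629.1 and 691.3 CPM in control replicates 1, 2 and 3. In *Phf2* KO replicates 1, 2 and 3 it was at 853.0, 846.6 and 901.7 CPM. The lowest *Phf2* KO library was well above the highest control library. The means were 661.0 ± 31.1 CPM (SD, n = 3) and 867.1 ± 30.1 CPM (SD, n = 3), so *Peg3* in *Phf2* KO cells was at 131.2% of control. *Peg3* rose by 0.39 on the log2 scale (standard error 0.0432, 95% interval 0.31 to 0.48, adjusted p = 1.29e-04). It passed the threshold in each of the 19 alternative settings, with log2 fold changes from 0.36 to 0.42. Its rank by counts was between 144 and 167 in control libraries and between 94 and 115 in *Phf2* KO libraries.

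Both tested imprinted neighbours of *Peg3* were also at higher means in *Phf2* KO cells. *Zim1* (ENSMUSG00000002266), a zinc finger gene that is maternally expressed in the embryo, lies next to *Peg3* on the same strand. It was at 135.0, 122.1 and 130.7 CPM in control replicates 1, 2 and 3, and at 191.8, 190.1 and 206.5 CPM in *Phf2* KO replicates 1, 2 and 3. The groups were far apart. *Zim1* rose by 0.60 on the log2 scale (standard error 0.0512, adjusted p = 2.16e-05), and its log2 fold change was between 0.56 and 0.63 in the 19 alternative settings, all past the threshold. *Usp29*, a ubiquitin protease gene that is paternally expressed and starts next to *Peg3* on the other strand, was at 4.96 ± 0.705 CPM in control and 6.57 ± 0.447 CPM in *Phf2* KO cells (SD, n = 3). Its groups did not overlap, but the adjusted p was 0.154 in edgeR's quasi-likelihood test. Its log2 fold change was 0.41 with a standard error of 0.154, and it was -0.64 and -1.10 on the scales of log2(TPM + 1) and log2(TPM + 0.1). Of the genes within 250 kb of *Peg3*, only *Zim1* and *Usp29* were tested.

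**Figure D3:**
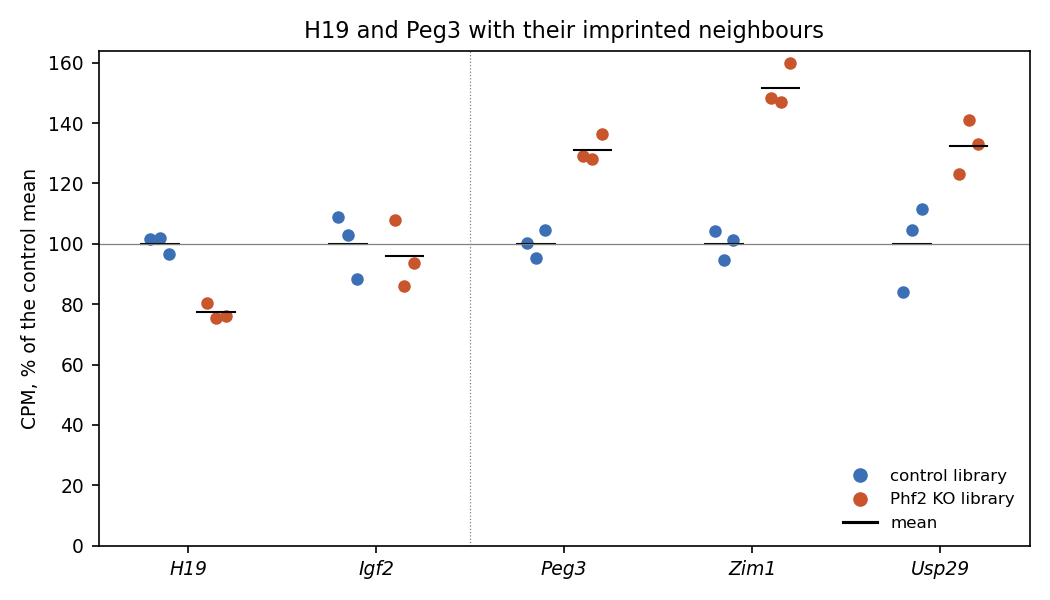
CPM of *H19* and *Igf2* (left) and of *Peg3*, *Zim1* and *Usp29* (right) in each library, as a percent of the gene's control mean; black lines are group means and blue points control libraries, orange points *Phf2* KO libraries. *H19* in *Phf2* KO cells is at 77.3%, *Peg3* at 131.2% and *Zim1* at 151.8% of control, and the *Igf2* libraries overlap.

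The starts of these genes are shown because *Peg3* and *Zim1* rose together. The starts of *Peg3* and *Usp29* in RefSeq face away from each other, and the stretch between them is 163 bases long. It lies at chr7:6730420-6730582 and is printed on the minus strand, the strand of *Peg3*. The stretch before the start of *Zim1* is 250 bases long, lies at chr7:6696433-6696682 and is also printed on the minus strand. Capitals mark CpG dinucleotides, the sites at which imprints are written:
between *Peg3* and *Usp29*: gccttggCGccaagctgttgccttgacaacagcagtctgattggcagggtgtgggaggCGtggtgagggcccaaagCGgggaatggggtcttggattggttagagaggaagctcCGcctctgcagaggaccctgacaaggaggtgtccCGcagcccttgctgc
upstream of *Zim1*: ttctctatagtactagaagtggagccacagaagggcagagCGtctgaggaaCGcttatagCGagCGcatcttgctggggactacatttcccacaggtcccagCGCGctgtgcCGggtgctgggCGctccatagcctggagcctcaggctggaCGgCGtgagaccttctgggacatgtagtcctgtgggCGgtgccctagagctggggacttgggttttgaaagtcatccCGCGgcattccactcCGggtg
The first stretch holds 5 CpG and the second 14. The starts of *Peg3* and *Zim1* in RefSeq are 34.0 kb apart. Which starts the cells used was not tested. DNA methylation was not measured in these libraries.

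The *Dlk1*, *Meg3*, *Rian* and *Mirg* genes lie side by side on chromosome 12. *Dlk1* makes a paternally expressed membrane protein related to Notch ligands, and *Meg3*, *Rian* and *Mirg* make maternally expressed noncoding RNAs that carry snoRNAs and microRNAs. *Dlk1* (ENSMUSG00000040856; 109452823 to 109463336) had 8 estimated counts in control replicate 3 and 0 in the other 5 libraries. *Meg3* (ENSMUSG00000021268; 109541001 to 109571726) had 4 counts in *Phf2* KO replicate 2 only. *Rian* (ENSMUSG00000097451; 109603808 to 109661716) had 2 counts in control replicate 1 only. *Mirg* (ENSMUSG00000097391; 109729764 to 109749460) had 0 counts in all 6 libraries. A pair of reads adds about 4 counts, so 3 read pairs, taken as the limit that a count of 0 allows, come to 12 counts or between 0.177 and 0.228 CPM. All 4 genes were at or under that limit in both groups, and no difference was detectable at this depth. No ratio among them was formed for the same reason.

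The neighbouring rows were as low. From the start of *Dlk1* to the end of *Mirg*, 296.6 kb, the matrix holds 102 rows, of which 66 are microRNAs and 23 are snoRNAs. In 94 of these rows all libraries were at 0, in 8 the highest count was between 1 and 12, and in none was it above 12. *Rtl1*, a retrotransposon-derived gene expressed from the paternal copy, had 4 counts in control replicate 1 and 0 elsewhere. Up to the end of *Dio3*, 828.3 kb in all, 1 further row was above 12 counts, *Gm3379*, which is annotated as a processed pseudogene. Short RNAs are poorly captured in such libraries, so the rows of microRNAs and snoRNAs say little by themselves.

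**Figure D4:**
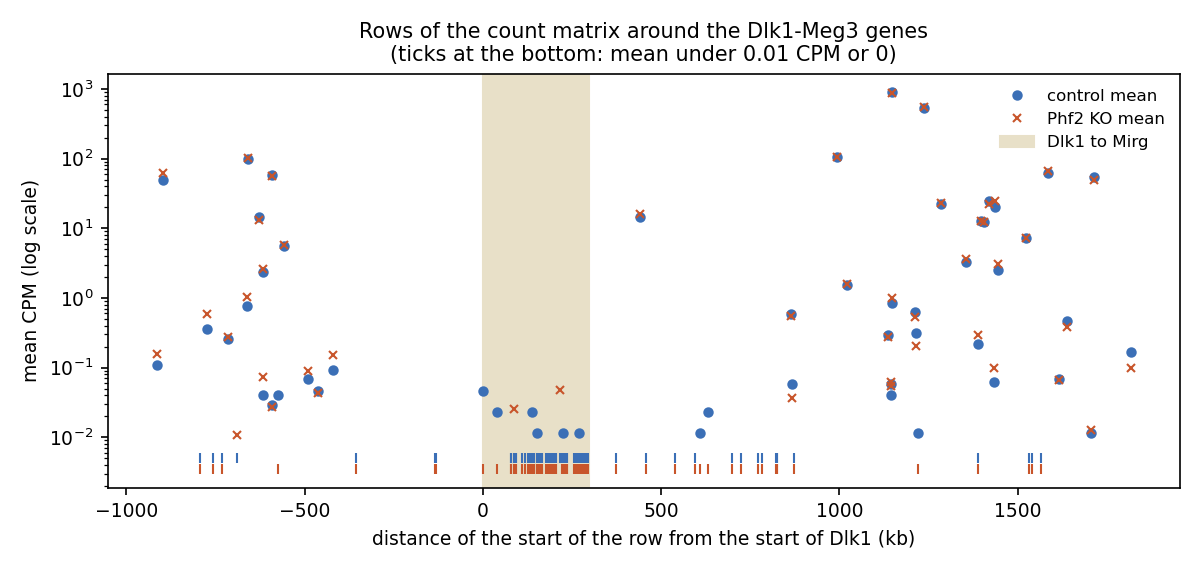
Mean CPM (log scale) of each row of the count matrix against the distance of its start from the start of *Dlk1* in kb, for control (blue points) and *Phf2* KO cells (orange crosses); ticks at the bottom are rows under 0.01 CPM or at 0. The shaded 296.6 kb from *Dlk1* to *Mirg* holds no row above 12 counts, while rows on both sides reach levels of many CPM in both groups.

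*Mest* (ENSMUSG00000051855; chromosome 6, 30723547 to 30748465, plus strand), a paternally expressed gene for a hydrolase-like protein of the endoplasmic reticulum, was at 20.53, 19.02 and 21.74 CPM in control replicates 1, 2 and 3. In *Phf2* KO replicates 1, 2 and 3 it was at 18.84, 16.16 and 18.53 CPM. The groups did not overlap, but control replicate 2 was only just above *Phf2* KO replicate 1. The log2 fold change was -0.19 (standard error 0.0905, 95% interval -0.37 to -0.02), and with an adjusted p of 0.257 from edgeR no change was called. *Mest* shares 912 bases with *Copg2* on the opposite strand, and the sources used here do not say whether strand entered the counting. *Copg2*, a coat protein gene maternally expressed in some tissues, was at 70.0 ± 0.680 and 77.6 ± 1.26 CPM (SD, n = 3), with an adjusted p of 0.0734 in the same test.

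*Mest* also hosts a microRNA. The hairpin of miR-335 (chr6:30741299-30741396, plus strand) lies in an intron of 7 of the 11 annotated *Mest* transcripts, and its row held at most 1 count. Its mature sequences in RefSeq are shown to compare their seeds, in capitals, with those from *H19*:
mmu-miR-335-5p: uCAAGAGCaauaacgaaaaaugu
mmu-miR-335-3p: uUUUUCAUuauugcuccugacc
None of the 4 seeds is shared between the hosts or the arms.

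*Ndn* (ENSMUSG00000033585; chromosome 7, 62346569 to 62350262, plus strand), which makes the growth suppressor necdin from the paternal copy, showed no called change. It was at 6.07, 5.72 and 6.65 CPM in control and at 6.39, 7.03 and 6.26 CPM in *Phf2* KO replicates 1, 2 and 3. The groups overlapped, and the log2 fold change was 0.09 (standard error 0.137, 95% interval -0.17 to 0.36, adjusted p = 0.791). *Magel2*, a gene of the same protein family beside *Ndn*, had at most 4 counts in any library. *Snrpn*, a splicing protein gene of the same imprinted region, was at 9.75 ± 1.65 and 9.54 ± 0.453 CPM (SD, n = 3).

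*Grb10* (ENSMUSG00000020176; chromosome 11, 11930508 to 12038683, minus strand), an adaptor that restrains insulin and IGF receptor signaling and is maternally expressed in most tissues, was low. Its estimated counts were 99, 119 and 62 in control and 40, 31 and 68 in *Phf2* KO replicates 1, 2 and 3. These are 1.74, 2.04 and 1.06 CPM against 0.650, 0.590 and 1.00 CPM. Scaled for depth, *Phf2* KO replicate 3 was just under control replicate 3. The log2 fold change was -1.10 (standard error 0.341, 95% interval -1.77 to -0.43), and the adjusted p of 0.076 from edgeR was outside the threshold. *Grb10* passed it without control replicate 3 (-1.33, adjusted p = 0.0389), in DESeq2 (-1.10, adjusted p = 0.0461) and with a filter of at least 1 CPM in 3 libraries (-1.10, adjusted p = 0.0488). Over all 19 alternatives the adjusted p was between 0.0389 and 0.983. In TPM the direction did not hold. The values were 0.366, 0.485 and 0.297 TPM in control and 1.30, 0.122 and 0.216 TPM in *Phf2* KO replicates 1, 2 and 3, and *Phf2* KO replicate 1 was the highest of the 6.

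*Plagl1* (ENSMUSG00000019817; chromosome 10, 13060504 to 13131694, plus strand), a paternally expressed zinc finger factor that slows cell division, was close to the limit of the depth. It had 35, 31 and 29 estimated counts in control and 10, 14 and 21 in *Phf2* KO replicates 1, 2 and 3. Scaled for depth, these were 0.614, 0.532 and 0.498 CPM in control and 0.163, 0.267 and 0.310 CPM in *Phf2* KO libraries. In CPM the groups did not overlap. The log2 fold change was -1.14 (standard error 0.520, 95% interval -2.16 to -0.13), and the adjusted p from edgeR was 0.246. *Plagl1* was outside the threshold in the alternatives that gave an adjusted p (0.164 to 0.854), and DESeq2 gave none. In TPM the groups overlapped, with 0.0449, 0.780 and 0.0357 TPM in control and 0.147, 0.0186 and 0.152 TPM in *Phf2* KO replicates 1, 2 and 3, and the log2 fold change was -0.17 and -0.41 in limma on log2(TPM + 1) and log2(TPM + 0.1). At about 4 counts a read pair, the counts of *Phf2* KO libraries stand for a few read pairs each.

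The spread between replicates was set beside that of genes at a similar level (within 2-fold). Each set of like genes includes the gene itself. The within-group SD of log2(CPM + 0.5) was 0.0466 for *H19*, which lay at the middle of its set of 27 genes and is itself their median. For *Peg3* it was 0.0596 against a median of 0.0478. For *Mest* it was 0.107 against 0.101, and for *Ndn* 0.0921 against 0.155. *Grb10* and *Plagl1* are left out here, since the offset of 0.5 is close to their levels and shrinks their spread.

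A wider list of 74 mouse imprinted genes, drawn from general knowledge and including genes imprinted only in some tissues or isoforms, had 72 in the matrix and 48 tested. Of these, 24 were higher and 24 lower in *Phf2* KO cells. Their log2 fold changes had a median of -0.01, beside a median of -0.001 over all genes tested. The threshold was passed by 3 as higher (*Zim1*, *Peg3* and *Sgce*) and 2 as lower (*H19* and *Zdbf2*), together 10.4% of the 48 beside 6.48% of all genes. Without the 10 genes above, 42 were tested and 3 passed, 7.14%. Of the 22 tested genes listed as maternally expressed, 10 were higher and 12 lower, with 1 past the threshold each way. Of the 26 listed as paternally expressed, 14 were higher and 12 lower, with 2 past the threshold as higher and 1 as lower. Neither parental class moved as a whole in these counts. In 23 of the 72 rows no library exceeded 12 counts.

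**Figure D5:**
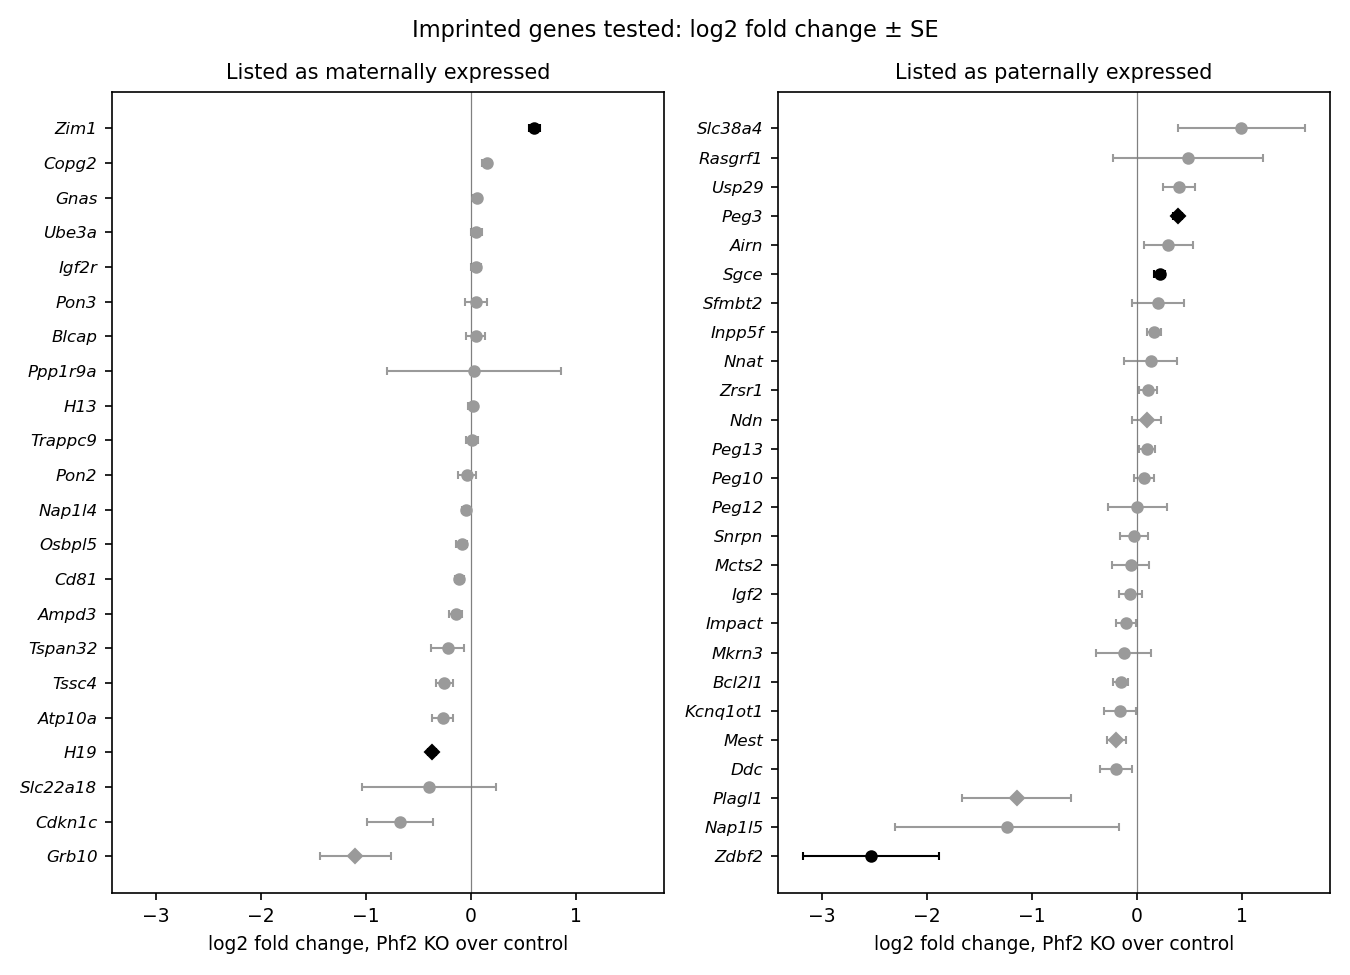
Log2 fold change ± standard error (*Phf2* KO over control, 3 libraries each) of the 48 imprinted genes tested, listed by the parental copy they are known to be expressed from; black symbols passed the adjusted p of 0.05 and diamonds are the genes described above. Most genes lie near 0, *Zim1*, *Peg3* and *Sgce* are past the threshold as higher, and *H19* and *Zdbf2* as lower.

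Among the paternally expressed genes, *Sgce*, which encodes the muscle membrane protein epsilon-sarcoglycan, was at 51.8 ± 3.27 CPM in control and 60.2 ± 0.862 CPM in *Phf2* KO cells (SD, n = 3), and rose by 0.22 on the log2 scale (standard error 0.0568, adjusted p = 0.0362). Its call was lost when any library other than control replicate 3 was left out, with adjusted p between 0.0861 and 0.159, and in limma-voom (0.0567) and both TPM fits (0.143 and 0.145). *Peg10*, which shares the start region of *Sgce*, was at 55.2 ± 4.82 and 57.9 ± 7.31 CPM (SD, n = 3; log2 fold change 0.07, adjusted p = 0.783). *Zdbf2*, a zinc finger gene, had 19, 39 and 38 counts in control and 3, 6 and 8 counts in *Phf2* KO replicates 1, 2 and 3. Its *Phf2* KO libraries were under 12 counts, so the fitted log2 fold change, -2.53 with a standard error of 0.648 (adjusted p = 0.032), rests on very few read pairs. The call was lost without any library other than control replicate 1, with adjusted p between 0.0878 and 0.168. It was also lost in limma-voom (adjusted p = 0.0513) and in limma on log2(TPM + 1) and log2(TPM + 0.1), where the log2 fold change was -0.11 and -0.73, and DESeq2 gave no adjusted p.

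The other imprinted genes looked up by name did not pass the threshold. *Cdkn1c*, a maternally expressed inhibitor of cell division, was at 1.74 ± 0.0661 CPM in control and 1.09 ± 0.444 CPM in *Phf2* KO cells (SD, n = 3; log2 fold change -0.68, adjusted p = 0.254). *Igf2r*, the receptor that clears IGF2, had a log2 fold change of 0.05 and *Gnas*, a G protein subunit gene, of 0.06. *Nnat*, a small membrane protein gene, had a log2 fold change of 0.13 at about 2.05 CPM in control cells.

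A separate list held 20 genes linked to setting or keeping imprints, among them general DNA methylation and chromatin genes. It includes *Zfp57*, whose protein binds the methylated motif TGCCGC. Of the 20 genes 17 were tested, and 10 were higher and 7 lower. The threshold was passed by 1 (5.88%, beside 6.48% of all genes), the chromatin protein gene *Smchd1*, with 78.2 CPM in control and 88.9 CPM in *Phf2* KO cells (log2 fold change 0.19, adjusted p = 0.0416), and this call was lost without any 1 of the libraries (adjusted p between 0.0623 and 0.161), in limma-voom (0.0666), with upper-quartile scaling (0.0568) and in both TPM fits (0.192 and 0.196). *Zfp57* was at 19.4 and 18.3 CPM (adjusted p = 0.680).

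Promoter windows of 300 bases (250 before and 50 after each start) were found in RefSeq for 9 of the 10 genes, in 13 windows. TGCCGC on either strand was in 5 of these, of *Meg3*, *Mest*, *Plagl1* and *Grb10*, and the window pair of *Mest* that held it overlaps. Over all 32851 windows the share with the motif was 11.6%. The window of *Peg3* held none. By CpG content, the 13 windows ranged from 0 CpG (*Rian*, percentile 0.0 of all windows) to 45 CpG (1 of the 2 *Grb10* windows, percentile 98.1). The *Plagl1* window with 26 CpG was at percentile 83.1 and that of *Peg3* with 13 at 62.1. The other *Grb10* window had 9 CpG (percentile 54.2), and 1 of the 2 *Meg3* windows had 1 CpG (percentile 5.4). The median over all windows was 7 CpG. Of the genes with the motif, *Meg3* was not tested and *Mest*, *Plagl1* and *Grb10* did not pass the threshold. Outside the 10, only *Usp29*, *Zim1*, *Zdbf2*, *Sgce* and *Peg10* were looked up, and *Sgce* and *Peg10* had no window. The motif was in the window of *Zim1* (1 match) and in 1 of the 2 windows of *Zdbf2* (3 matches, chr1:63200108-63200407), both genes past the threshold. The other *Zdbf2* window (chr1:63273019-63273318), around the start of the counted row at 63273265, held no match. The motif was not in the window of *Usp29*, which did not pass. The rest of the wider list was not searched for the motif. A motif match in a window is a description of the letters only.

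Calls among the other neighbours were counted beside the 6.48% of all genes tested, and the counts are too small to set a share against it. Within 250 kb of *H19*, 14 genes were tested and 1 passed, the fast skeletal troponin I gene *Tnni2*, which lies 131.1 kb away and was at 191.0 ± 19.4 CPM in control and 137.7 ± 15.5 CPM in *Phf2* KO cells (SD, n = 3; log2 fold change -0.47, adjusted p = 0.0372). That call was lost without *Phf2* KO replicates 2 or 3 or control replicates 1 or 2 (adjusted p between 0.0656 and 0.143), without a filter (0.0712) and in both TPM fits (0.209 and 0.216). Within 250 kb of *Grb10*, 4 genes were tested and *Cobl*, an actin nucleator gene at 197.9 kb, was lower (log2 fold change -0.63, adjusted p = 0.00254, but 0.403 and 0.410 in the TPM fits). Near *Mest*, *Plagl1* and *Ndn*, 5, 5 and 3 genes were tested and none passed edgeR's quasi-likelihood threshold.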

How the data were processed

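RNA sequencing of 6 C2C12 libraries was analysed, 3 control and 3 *Phf2* KO, grouped by their sample titles. The authors aligned reads to mm10 with HISAT2 and quantified them with StringTie; versions and strand setting are not given in the sources used here. In the deposited matrix are estimated counts, rounded to whole numbers and not scaled for depth. In 897 and 930 genes with 1 transcript, a count stood for a median of 74.99 covered bases in control replicate 1 and *Phf2* KO replicate 1 (coverage as deposited). At the study's read length each pair of reads then gives about 4 counts. The deposited per-library tables give TPM, a signal scaled by the authors to each library. Rows of assembled loci repeat reference genes there and were left out.

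Counts were analysed with edgeR 4.0.16 in R 4.3.3: filterByExpr (minimum count 10), TMM, and the quasi-likelihood test with robust dispersions and Benjamini-Hochberg adjustment over 17310 genes, at a threshold of 0.05. All adjusted p-values are from this fit unless another is named. Standard errors are the log2 fold change divided by the root of F. The study's own test was edgeR's exactTest, run as an alternative with DESeq2 1.42.0, limma-voom (limma 3.58.1), other scalings and filters, a replicate block, counts divided by 4, counts summed per symbol, limma on log2 TPM with pseudocounts of 1 and 0.1, and leaving out each library. Libraries with the same replicate number deviated together (correlations of 0.235, 0.258 and 0.168 across 10923 genes, against -0.241 to -0.002 for different numbers). Deviations from a group mean cancel within the group. The values for different numbers are therefore no independent baseline for those of the same number. No source describes a pairing, so the block was an alternative. On simulated data with 16893 genes and 197 changed, the test recovered 73% of the 2-fold and 53% of the 1.5-fold changes. It called 129 genes, of which 5 were unchanged. The simulation changed fewer genes than passed in the real data and took its dispersions from the trend. Its recovery need not hold for the real data.

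The genes and lists were chosen with earlier results of these data known. Genes were named by a rule: *Phf2*, the 10 genes, 14 further imprinted genes whatever their result, up to 10 more of the wider list and up to 5 neighbours past the threshold within 250 kb, and at most 3 examples of a marker list. *Gm3379*, *Gm49394*, *Zfp57* and *Smchd1* were named outside it, after their values were seen. *Dio3* was also named outside it, as the end of an interval. The adipocyte markers were named in full, past the limit of 3 examples. Coordinates are those of GENCODE M21 (GRCm38), which held 54349 of the 55401 identifiers with the same version. Sequences are from RefSeq. Intervals and limits cover counting error or spread between wells only. Figures were drawn with Python 3.11.15.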

Additional observations from a re-analysis of the deposited data

How the results depend on the processing

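*H19* and *Peg3* kept their direction and stayed past the threshold in all 19 alternatives, and *Mest*, *Ndn* and *Plagl1* stayed outside it wherever an adjusted p was given. With the replicate block, *H19* had a log2 fold change of -0.37 (adjusted p = 9.58e-05) and *Peg3* of 0.39 (adjusted p = 6.65e-05), and among the imprinted genes named the block changed no call, but 1316 of all genes passed. *Smchd1* lost its call with the block (adjusted p = 0.0523). *Grb10* passed the threshold in DESeq2 (-1.10), with at least 1 CPM in 3 libraries (-1.10) and without control replicate 3 (-1.33), and turned to 0.084 in limma on log2(TPM + 1); leaving out libraries gave -1.38 to -0.90. *Igf2* turned to 0.003 without control replicate 1 and to 0.012 without *Phf2* KO replicate 2, within -0.15 to 0.012 over all left-out libraries.

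The genes past the threshold numbered 158 and 178 in limma on log2(TPM + 1) and log2(TPM + 0.1), and 468 to 1039 with a library left out (468 without control replicate 2, 577 and 613 without *Phf2* KO replicates 2 and 3). The imprinted genes past it numbered 2 to 3. In the wider list, 3 passed in limma-voom and in both TPM fits, and 3 to 5 with a library left out (3 without control replicate 2 or any *Phf2* KO replicate). Of these, 1 was lower in limma-voom, with counts divided by 4 and in both TPM fits, and 1 to 2 with a library left out. These fits use fewer samples or another scale, and the cause of each lost call was not tested further. *Plagl1* had no value with the filter of 1 CPM or with counts divided by 4, and no adjusted p in DESeq2. Depth limits *Plagl1*, *Grb10* and *Zdbf2* to few read pairs a library.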
